A study of Mus musculus with 20 samples.

Results

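The genes described here are 8 solute carriers of the liver: Slc22a3, Slc22a5 and Slc22a7 of the Slc22 family, and Slco1a1, Slco1a4, Slco1b2, Slco2a1 and Slco2b1 of the Slco family. They are 8 of the 46095 gene symbols in the counts table, and all 8 were among the 14440 genes that passed the filter on low counts. The set was assembled around Slc22a7, which was chosen by its measured counts: they were lower in the knockout than in the wild type on the steatohepatitis diet. Values of knockout against wild-type livers on that diet are therefore given as a description and carry no test. The same holds for Slc22a7 in every comparison that uses libraries of that diet.

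Whole-liver RNA was sequenced from 20 mice aged 31 to 33 weeks, 5 in each of 4 groups. Wild-type mice (WT) and mice with a liver-specific knockout of Pck1 (Pck1-cKO, here KO) received chow or a NASH diet, named for the non-alcoholic steatohepatitis it is meant to induce, for 24 weeks. Pck1 encodes the cytosolic phosphoenolpyruvate carboxykinase of gluconeogenesis. The strain, the promoter that drove the deletion, the composition of the NASH diet and the sex of the animals were not given in the sources used here. Nothing in the labels says whether mice shared a litter or cage.

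Library totals ranged from 9958935 to 20601955 counts. Pck1 was at 3573 ± 1139 (chow) and 2290 ± 511 CPM (NASH diet) in WT and at 626 ± 175 and 445 ± 112 CPM in KO (SD, n = 5 each), so the counts match the genotype labels. CPM here are counts rescaled by each library's total and its TMM factor. Judged by Y-linked counts, 13 libraries were male and 7 female. The females were 4 of the WT NASH mice (all but replicate 4), KO chow replicates 3 and 5, and KO NASH replicate 2. Genotype, diet and sex are thus partly confounded, and WT chow has no female. In 6 libraries (WT chow replicates 3, 4 and 5, WT NASH replicate 4, KO chow replicates 4 and 5) long genes had lower counts relative to short ones, with a slope of log2 CPM on log2 exonic length of -0.34 to -0.25 against 0.01 to 0.19 in the other 14. Summed CPM of 7 kidney markers reached at most 0.297 in any library, and hepatocyte markers summed to at least 50700 CPM in every library.

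Hepatocytes take up drugs, hormones, bile acids and metabolites from the blood through solute carriers in their sinusoidal membrane. The Slc22 family contains the organic anion transporters, the organic cation transporters and the carnitine transporters. The Slco family encodes the organic anion transporting polypeptides, which move larger amphipathic anions such as bile acids, bilirubin conjugates, thyroid hormones and steroid sulphates without using the sodium gradient. Nuclear receptors, hepatocyte transcription factors and growth hormone signalling are known to control many of these genes.

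All 8 genes are protein coding. On GRCm38 they lie at chr17:46432183-46438457 (Slc22a7), chr11:53864542-53891660 (Slc22a5), chr17:12418960-12507704 (Slc22a3), chr6:141907282-141946962 (Slco1a1), chr6:141805440-141856199 (Slco1a4), chr6:141629518-141686646 (Slco1b2), chr9:102988712-103096002 (Slco2a1) and chr7:99657804-99711340 (Slco2b1). Slco1b2, Slco1a4 and Slco1a1 are neighbours on chromosome 6, with Slco1b2 on the plus strand and the others on the minus strand. Of all 50-base stretches of the longest transcript, 27.1% in Slc22a5 also occur in other genes, 812 of the 818 shared ones in Slc22a21. The share was 2.26% in Slco1a1, 2.73% in Slco1a4, 0.778% in Slco2a1 and 0 in the other members, so counts of Slc22a5 in particular depend on how reads with several matches were assigned.

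The sequences upstream of 5 members are shown for contrasts that recur in the results. Slc22a5 and Slc22a3 had levels that ran together across libraries, while the neighbouring Slco1a1, Slco1a4 and Slco1b2 did not. Each is the 250 bases before the gene's RefSeq start on GRCm38.p6, printed 5′ to 3′ on the strand of the gene, with matches to the searched motifs in capitals on either strand. RefSeq's table had an upstream sequence for 7 of the 8 members, all but Slc22a7. Bases just after the RefSeq start were found near the start of a GENCODE M21 transcript for Slco1a1, Slco1a4 and Slc22a3. They were not found there for Slc22a5 and Slco1b2. The Slco1b2 window ends at base 141629517 and the GENCODE gene starts at 141629518, so there the 2 starts adjoin. The minus-strand Slc22a5 window begins at 53891704, apart from the gene's end at 53891660, so the start of that window is less sure.
Slc22a5 (chr11:53891704-53891953, minus strand): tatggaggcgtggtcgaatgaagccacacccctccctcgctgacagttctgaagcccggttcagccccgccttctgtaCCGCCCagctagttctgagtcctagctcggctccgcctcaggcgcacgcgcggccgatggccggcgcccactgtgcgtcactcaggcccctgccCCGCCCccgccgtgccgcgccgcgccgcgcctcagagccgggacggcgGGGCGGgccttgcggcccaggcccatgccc
Slc22a3 (chr17:12507705-12507954, minus strand): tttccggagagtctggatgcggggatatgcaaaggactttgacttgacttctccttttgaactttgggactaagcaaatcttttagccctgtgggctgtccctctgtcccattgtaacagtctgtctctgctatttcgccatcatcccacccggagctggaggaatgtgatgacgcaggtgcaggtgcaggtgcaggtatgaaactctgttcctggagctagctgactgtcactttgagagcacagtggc
Slco1a1 (chr6:141946963-141947212, minus strand): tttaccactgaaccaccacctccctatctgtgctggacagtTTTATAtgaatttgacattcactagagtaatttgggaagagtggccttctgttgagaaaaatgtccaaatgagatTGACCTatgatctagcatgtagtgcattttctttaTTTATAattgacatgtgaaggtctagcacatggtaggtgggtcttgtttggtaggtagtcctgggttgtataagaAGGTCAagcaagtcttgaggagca
Slco1a4 (chr6:141856221-141856470, minus strand): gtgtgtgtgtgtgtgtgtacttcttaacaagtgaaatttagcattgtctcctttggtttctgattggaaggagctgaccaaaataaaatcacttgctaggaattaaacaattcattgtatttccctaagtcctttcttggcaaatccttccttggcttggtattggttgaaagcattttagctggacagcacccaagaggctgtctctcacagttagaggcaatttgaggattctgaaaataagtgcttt
Slco1b2 (chr6:141629268-141629517, plus strand): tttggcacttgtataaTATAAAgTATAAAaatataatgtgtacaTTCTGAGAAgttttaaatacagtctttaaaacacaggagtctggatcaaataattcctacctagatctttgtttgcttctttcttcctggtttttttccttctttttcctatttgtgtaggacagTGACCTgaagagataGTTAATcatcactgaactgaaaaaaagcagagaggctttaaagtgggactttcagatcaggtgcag
The motifs were the STAT site TTCNNNGAA, the HNF1 core GTTAAT, the nuclear receptor half-site AGGTCA, the TATA box motif TATAAA and the GC box motif GGGCGG, searched on both strands with no overlap among the matches printed. The window of Slc22a5 held 3 GC box matches, 30 CpG dinucleotides and a GC content of 73.6%, against a median of 52% over 27018 promoters. The GC box occurs in 32.9% of those promoters. The Slc22a3 window, at a GC content of 51.2%, held none of the 5 motifs. The Slco1a1 window held 2 nuclear receptor half-sites, 134 and 24 bases before the start, and 2 TATA boxes. Slco1b2 held 1 match each to the STAT site, the HNF1 core and the half-site and 2 to the TATA box, and Slco1a4 held none. Of the promoters, 13.8% hold a half-site, 13% a TATA box, 7.18% a STAT site and 6.52% an HNF1 core. A match describes the letters only.

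Slc22a7, the organic anion transporter OAT2, was lower in KO than in WT livers on both diets, and higher in WT livers on the NASH diet than on chow. On chow, WT replicates 1 to 5 were at 14.6, 18.7, 9.75, 5.98 and 11.2 CPM, and KO replicates at 2.64, 1.33, 2.03, 0.871 and 0.486 CPM. On the NASH diet, WT replicates were at 61.5, 29.9, 34.9, 43.8 and 31.5 CPM, and KO replicates at 1.79, 2.44, 1.06, 3.07 and 1.63 CPM. Every KO library lay below every WT library, and WT NASH lay above WT chow without overlap, while the 2 KO groups overlapped. The chow comparison is the one whose libraries did not enter the choice of the gene. There Slc22a7 fell 8.11-fold in KO (log2 change -3.02, SE 0.398, edgeR adjusted p = 0.000281), with the groups apart in all 5 libraries a side. The fit reported takes its spread from all 20 libraries, those of the NASH diet included. With only the chow groups in the fit the log2 change was -3.01 (SE 0.44, edgeR adjusted p = 0.00541). The call was made in 31 of 31 alternative fits, with log2 changes of -3.34 to -2.78 and edgeR adjusted p of at most 0.00541, males alone among them. In bulk liver, fewer cells that express a gene and less RNA per cell cannot be told apart.

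The other Slc22a7 differences are descriptions. The log2 change was -4.33 (SE 0.411) for KO NASH against WT NASH, 1.74 (SE 0.365) for WT NASH against WT chow, and 0.43 (SE 0.39) for KO NASH against KO chow. The difference of the KO effects between the diets was -1.31 (SE 0.53) on the log2 scale. The 1 male of WT NASH, at 43.8 CPM, lay within the 29.9 to 61.5 CPM of the 4 females. The highest count of the gene was 57 in KO chow and 64 in KO NASH libraries, against 346 in WT chow and 953 in WT NASH, so KO levels rest on few reads.

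Slc22a5, the sodium-dependent carnitine transporter OCTN2, ran opposite to Slc22a7. On chow, WT replicates 1 to 5 were at 77.1, 79.0, 86.1, 125.1 and 42.6 CPM, and KO replicates at 419, 253, 164, 133 and 143 CPM. On the NASH diet, WT replicates were at 32.6, 25.3, 29.9, 12.95 and 31.4 CPM, and KO replicates at 69.8, 109, 165, 114 and 71.6 CPM. KO lay above WT without overlap on each diet. WT NASH lay below WT chow without overlap. In KO chow, Slc22a5 rose 2.72-fold over WT chow (log2 change 1.44, SE 0.352, edgeR adjusted p = 0.0215). That call sat near the threshold: it was lost without WT chow replicate 5 (edgeR adjusted p = 0.0518), KO chow replicate 1 (0.0826) or KO chow replicate 2 (0.0545), and with only the compared groups in the fit (0.068), in a range of 0.00162 to 0.0826 over 31 alternatives.

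In WT livers Slc22a5 fell 3.09-fold on the NASH diet (log2 change -1.63, SE 0.355, edgeR adjusted p = 0.0101), in 5 of 5 libraries. The call was kept without any single library. It was lost with sex as a term (log2 change -1.57, edgeR adjusted p = 0.135) and kept with sex and slope as terms (-1.88, edgeR adjusted p = 0.0202). In males alone, with 1 WT NASH library, the log2 change was -2.69. In KO livers the diet difference of -1.07 (SE 0.349) did not pass (edgeR adjusted p = 0.0902). It passed in 3 of 32 alternatives: DESeq2 (DESeq2 adjusted p = 0.031), the slope (edgeR adjusted p = 0.0252), and sex and slope (0.0211). For KO NASH against WT NASH the log2 change was 2.00 (SE 0.359). The group means ran in the order KO chow, KO NASH, WT chow and WT NASH, and the ranges of KO NASH and of its neighbours KO chow and WT chow overlapped. Slc22a21, which shares sequence with Slc22a5, was at a mean of 0.639 CPM over the 20 libraries, with a KO difference on chow of 0.38 (SE 0.559, edgeR adjusted p = 0.75).

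Slc22a3, the organic cation transporter OCT3, which carries monoamines, was present at low levels in the same order of groups. On chow, WT replicates 1 to 5 were at 4.86, 9.53, 3.28, 5.22 and 7.55 CPM, and KO replicates at 16.2, 22.6, 10.7, 7.33 and 8.20 CPM. On the NASH diet, WT replicates were at 2.20, 3.68, 3.94, 1.47 and 1.81 CPM, and KO replicates at 5.50, 3.85, 10.4, 7.33 and 4.44 CPM. The groups overlapped in each of the 4 pairwise comparisons. The log2 change was 1.09 (SE 0.366, edgeR adjusted p = 0.0866) for KO against WT on chow, -1.20 (SE 0.38, edgeR adjusted p = 0.065) for the diet in WT and -1.06 (SE 0.363, edgeR adjusted p = 0.105) for the diet in KO, none of which passed. The first passed in 2 of 31 alternatives, without KO chow replicate 5 (edgeR adjusted p = 0.0451) and with DESeq2 (DESeq2 adjusted p = 0.0381). The diet in WT passed in 3 of 31: DESeq2 (0.0231), a block for the replicate number (edgeR adjusted p = 0.0496) and the slope (0.0102). The diet in KO passed in 3 of 32: DESeq2 (0.0453), the slope (edgeR adjusted p = 0.0246), and sex and slope (0.0144). The log2 change was 1.24 (SE 0.378) for KO NASH against WT NASH. Exons of Slc22a3 overlap 420 exonic bases of Plg on the opposite strand, and Plg, far more abundant, differed by -0.59 in both KO comparisons (edgeR adjusted p = 0.142 on chow). Across the 20 libraries, log2 CPM of Slc22a3 and Slc22a5 had a Pearson correlation of 0.84, and Slc22a5 and Slc22a7 one of -0.79. These are descriptions over libraries that share groups, sex and depth.

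**Figure D1:**
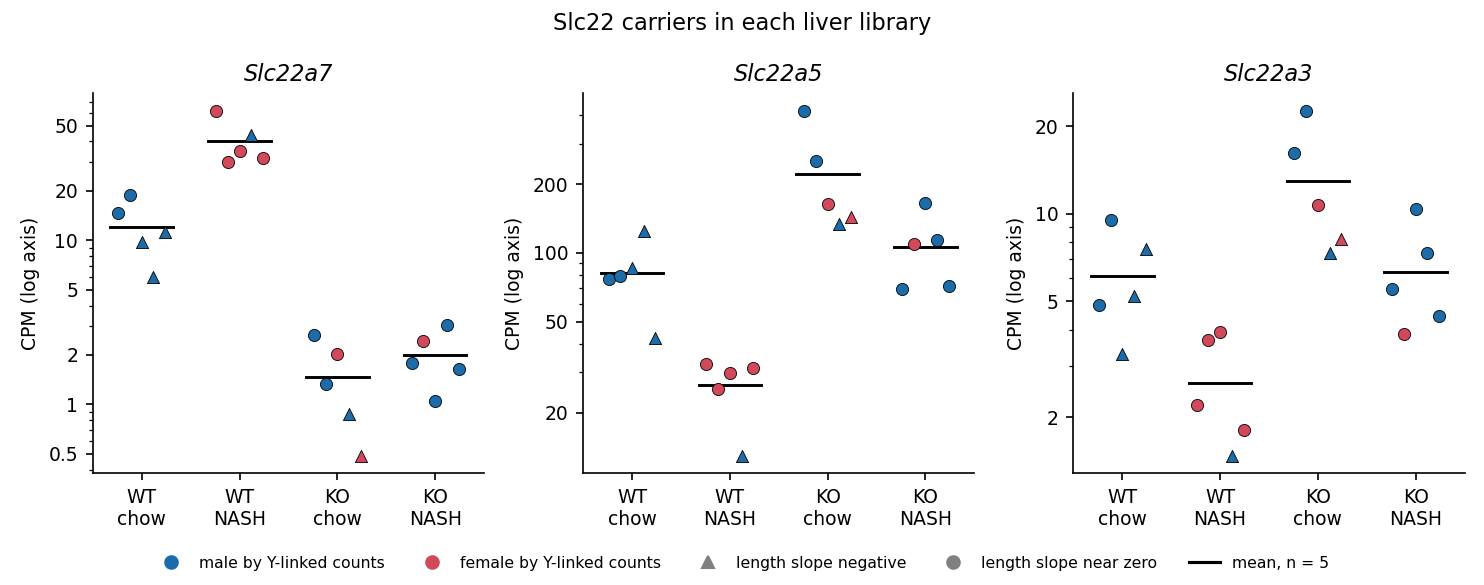
CPM (log axis) of Slc22a7, Slc22a5 and Slc22a3 in each of the 20 libraries by group, coloured by sex read from Y-linked counts, with triangles for libraries with a negative length slope and bars for the mean of 5. Slc22a7 sits at 0.486 to 3.07 CPM in all KO libraries and at 5.98 CPM or above in all WT libraries, while Slc22a5 is highest in KO chow.

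Slco1a1, which encodes the organic anion transporting polypeptide Oatp1a1 and is known as a male-predominant gene of mouse liver, varied most among the members. On chow, WT replicates 1 to 5 were at 361, 264, 1171, 611 and 589 CPM, and KO replicates at 119, 82.1, 2.13, 89.2 and 2.49 CPM. On the NASH diet, WT replicates were at 82.5, 0.297, 10.1, 1268 and 13.4 CPM, and KO replicates at 113, 0.898, 129.6, 52.7 and 99.5 CPM. The females were low in each group that has them, at 0.297 to 82.5 CPM, and the males were at 52.7 to 1268 CPM. Across groups these ranges overlapped. With the 4 groups kept as terms, females were lower than males by a log2 difference of -5.76 (SE 0.789, edgeR adjusted p = 0.000182). Slco1a1 was the 1 of 8 members called for sex, against 1.02% of all tested genes. This sex comparison was added after the data were seen.

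Within males, KO chow libraries were at 82.1, 89.2 and 119 CPM and WT chow libraries at 264 to 1171 CPM, without overlap. A fit of male libraries alone gave a log2 change of -2.62 (SE 0.47, edgeR adjusted p = 0.00639), and Slco1a1 was 1 of 4 members called there, with 6.23% of all genes tested in males called. That was the 1 of 31 alternatives to call it: adding sex to the fit gave -2.49 (edgeR adjusted p = 0.0879), and adding sex and slope gave -2.46 (edgeR adjusted p = 0.0518). Over both sexes the difference was -3.35 with an SE of 1.47 and did not pass (edgeR adjusted p = 0.208), although the 2 groups did not overlap. The NASH diet difference in WT was -1.13 (SE 1.36, edgeR adjusted p = 0.655). Leaving out the male at 1268 CPM, replicate 4 of WT NASH, made it -4.51 (edgeR adjusted p = 0.0414), and with sex as a term it turned to 1.23 (edgeR adjusted p = 0.59). For KO NASH against WT NASH the value was -1.80 (SE 1.38), and without that library 1.57. It was -3.97 with sex as a term, -3.90 with sex and slope as terms, and -3.66 in males alone, with 1 WT NASH male. The 4 KO NASH males lay at 52.7 to 129.6 CPM, below that male.

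Slco1a4, encoding Oatp1a4, a carrier of cardiac glycosides and bile acids, showed no difference that passed the test. WT libraries were at 57.4 to 317 CPM on chow and 48.0 to 194 on the NASH diet, KO libraries at 129 to 484 and 34.7 to 225, and all groups overlapped. The log2 change was 0.13 (SE 0.531, edgeR adjusted p = 0.919) for KO on chow, turning to -0.59 with sex as a term, and -0.94 (SE 0.536, edgeR adjusted p = 0.306) for the diet in WT. It was -1.03 (SE 0.537, edgeR adjusted p = 0.261) for the diet in KO and 0.05 (SE 0.532) for KO NASH against WT NASH. In KO chow the 2 female libraries read 428 and 484 CPM, and the 3 male ones 129 to 188 CPM. The female minus male difference over all groups, 1.28 (SE 0.474), did not pass (edgeR adjusted p = 0.394).

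Slco1b2, encoding the hepatocyte-restricted Oatp1b2 that takes up bilirubin conjugates and bile acids, was the most abundant member. WT chow replicates 1 to 5 were at 1933, 1897, 4511, 4841 and 3663 CPM, and KO chow replicates at 502, 347, 1345, 1629 and 2772 CPM. WT NASH replicates were at 1249, 1865, 1478, 4099 and 2028 CPM, and KO NASH replicates at 932, 931, 1416, 1553 and 858 CPM. KO means were lower on both diets, yet the groups overlapped. On chow the log2 change of -1.35 (SE 0.469) did not pass (edgeR adjusted p = 0.0996). The 6 libraries with a negative length slope were at 1629 to 4841 CPM and the other 14 at 347 to 2028 CPM. With the slope as a term the chow difference was -1.15 (SE 0.26, edgeR adjusted p = 0.00733), and in males alone -2.02 (SE 0.53, edgeR adjusted p = 0.0378). It also passed without KO chow replicate 5 (-1.78, edgeR adjusted p = 0.0239) and with sex and slope as terms (-1.33, edgeR adjusted p = 0.0044). A block for the replicate number (-1.49, edgeR adjusted p = 0.0229) and DESeq2 (-1.36, DESeq2 adjusted p = 0.0371) gave the call too. With sex alone as a term the difference did not pass (-1.36, edgeR adjusted p = 0.177). In all, 6 of 31 alternatives called it. The diet difference was -0.65 (SE 0.463, edgeR adjusted p = 0.414) in WT and -0.21 (SE 0.461, edgeR adjusted p = 0.801) in KO, and KO NASH against WT NASH was -0.91 (SE 0.465).

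**Figure D2:**
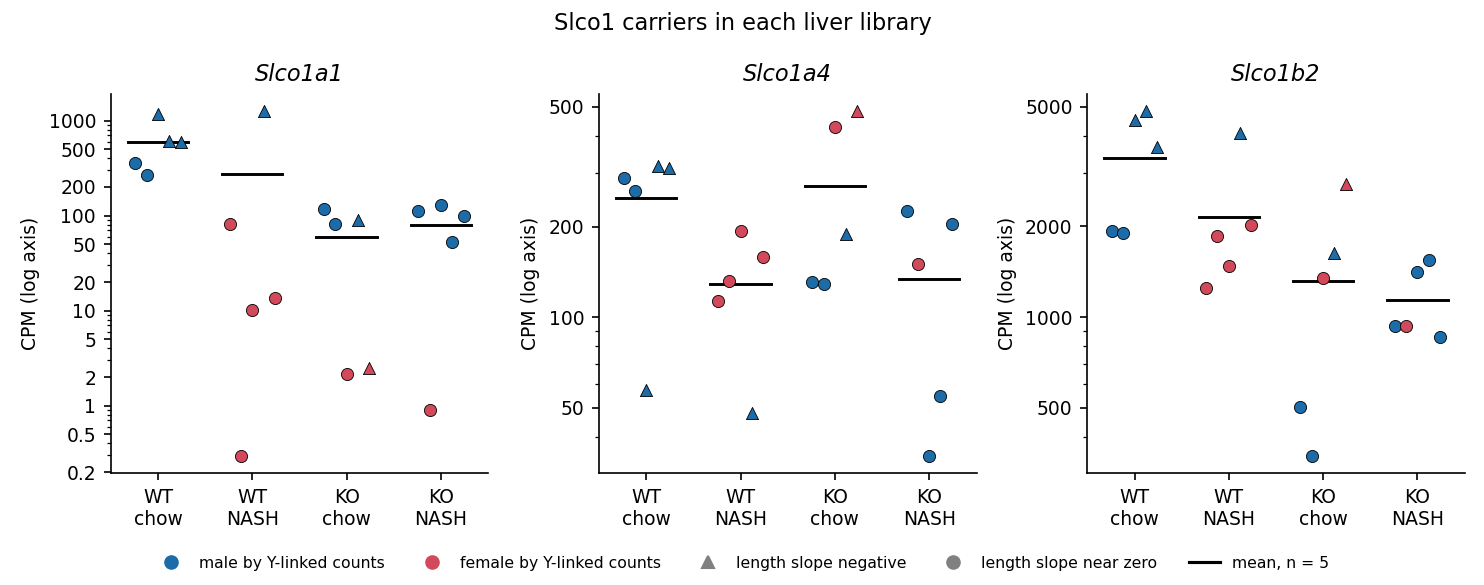
CPM (log axis) of Slco1a1, Slco1a4 and Slco1b2 in each of the 20 libraries by group, coloured by sex read from Y-linked counts, with triangles for a negative length slope and bars for the mean of 5. Females are low for Slco1a1 in each group that has them (0.297 to 82.5 CPM), and the 1 WT NASH male is the highest library at 1268 CPM.

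Slco2a1 encodes the prostaglandin transporter, and Slco2b1 encodes Oatp2b1, a carrier of steroid sulphates. Slco2a1 replicates 1 to 5 were at 40.9, 42.3, 38.0, 21.8 and 15.3 CPM in WT chow and at 22.2, 25.3, 39.8, 12.9 and 16.2 CPM in KO chow. On the NASH diet, WT replicates were at 108.7, 64.8, 53.6, 24.3 and 78.3 CPM, and KO replicates at 19.0, 33.3, 31.9, 22.6 and 25.0 CPM. WT NASH held the 4 highest libraries of the study, all female, and its male overlapped the other groups. The diet difference in WT was 1.06 (SE 0.358, edgeR adjusted p = 0.0847). It passed in 3 of 31 alternatives: without WT NASH replicate 4 (1.27, edgeR adjusted p = 0.0161), with the replicate block (1.07, edgeR adjusted p = 0.0426) and with DESeq2 (1.06, DESeq2 adjusted p = 0.0389). With sex as a term it was 0.37 (edgeR adjusted p = 0.74). KO NASH against WT NASH was -1.33 (SE 0.36) over both sexes and 0.05 in males alone, with 1 WT NASH male. On chow the KO difference was -0.44 (SE 0.356, edgeR adjusted p = 0.536), and with sex and slope as terms -1.01 (SE 0.23, edgeR adjusted p = 0.00601). The diet difference in KO was 0.18 (SE 0.355, edgeR adjusted p = 0.786).

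Slco2b1 was at 103 to 178 CPM (chow) and 115 to 242 CPM (NASH diet) in WT libraries, at 76.5 to 206 and 99.8 to 170.4 CPM in KO libraries, and no difference passed. The log2 change was -0.16 (SE 0.277, edgeR adjusted p = 0.791) for KO on chow, 0.54 (SE 0.278, edgeR adjusted p = 0.26) for the diet in WT and 0.14 (SE 0.277, edgeR adjusted p = 0.791) for the diet in KO. KO NASH against WT NASH gave -0.56 (SE 0.278). Slco2a1 and Slco2b1 had a Pearson correlation of 0.88 over the 20 libraries, a description. Both had lower ranges in the 6 libraries with a negative length slope, with overlap: Slco2a1 at 12.9 to 38.0 against 19.0 to 108.7 CPM, and Slco2b1 at 76.5 to 115 against 99.8 to 242 CPM. The part of the slope in these values was tested only as a term of the fits given here. Endothelial markers, a cell type known to express Slco2a1, summed to 328 to 429 CPM (chow) and 278 to 376 CPM (NASH diet) in WT, and to 388 to 482 and 332 to 534 CPM in KO. All 10 were detected in every group, and their part in the result was not tested.

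**Figure D3:**
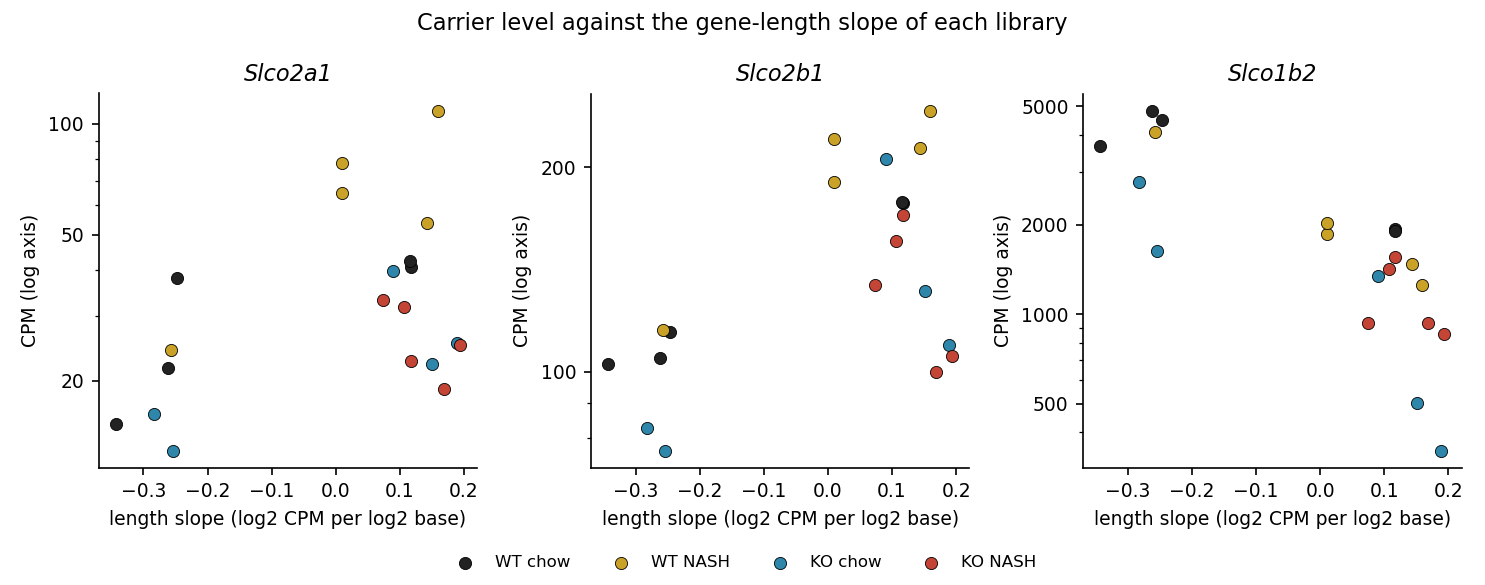
CPM (log axis) of Slco2a1, Slco2b1 and Slco1b2 against the gene-length slope of each of the 20 libraries (log2 CPM per log2 base), coloured by group. In the 6 libraries at slopes of -0.34 to -0.25 the medians were 19.0 CPM for Slco2a1, 103.8 for Slco2b1 and 3881 for Slco1b2, and in the 14 at 0.01 to 0.19 they were 36.5, 173.7 and 1380, with overlap.

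Per kilobase of exons, merged over all transcripts of a gene, the WT chow means ordered the carriers as Slco1b2 (684 CPM per kb), Slco1a1 (114), Slco1a4 (38.7), Slc22a5 (26.7), Slco2b1 (22.7), Slc22a7 (5.74), Slco2a1 (2.34) and Slc22a3 (1.35). Merged exons exceed the longest transcript unequally: 13545 against 7122 bases in Slco2a1, 6414 against 3823 in Slco1a4, 5958 against 4381 in Slco2b1 and 3071 against 3062 in Slc22a5. Close ranks therefore depend on the length used. In KO chow, Slc22a5 was at 72.4 ± 38.9 CPM per kb (SD, n = 5), Slco1a4 at 42.4 ± 26.6 and Slco1a1 at 11.2 ± 10.1. Slc22a7 at 0.700 ± 0.414 was the lowest of the 8. The order of Slc22a5 and Slco1a4 rests on the length used. Without it, Slco1a4 was the higher, at 272 ± 171 CPM against 222 ± 120 CPM.

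Counted over the members, KO chow against WT chow gave 2 of 8 called, Slc22a5 higher and Slc22a7 lower, where 5.53% of all tested genes were called. Groups without overlap numbered 3 of 8, with Slco1a1 added, against 4.91% of all genes. WT NASH against WT chow gave 2 of 8, the same carriers, against 5.93% of all genes, and 2 without overlap against 6.15%. One of these, Slc22a7, is a description. KO NASH against WT NASH, the contrast behind the choice, had 4 of 8 past the threshold (Slc22a3, Slc22a5, Slc22a7 and Slco2a1) where 9.65% of all genes were, and 2 without overlap where 14.1% were. Nothing is read from these counts, since the contrast entered the choice. For the diet in KO, edgeR called 0 of 8, where it called 3.29% of all genes. Unadjusted p was under 0.05 in 2 of 8, and in 3199 of all 14440 tested genes. DESeq2 called 2 (Slc22a3 and Slc22a5) with 9.02% of all genes called, and 0 of 8 were without overlap where 8.50% were. For the interaction of genotype and diet, of the 7 carriers other than Slc22a7, edgeR called 0, where 0.139% of all genes were called, and DESeq2 called 0, where 1.31% were. Of these 7, 0 had an unadjusted p under 0.05, where 1191 of all 14440 tested genes had. The comparisons share groups and are not independent. The median log2 change of the members was -0.30 for KO chow against WT chow, with 0 over all genes, and -0.80 for WT NASH against WT chow, with 0.01 over all genes.

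**Figure D4:**
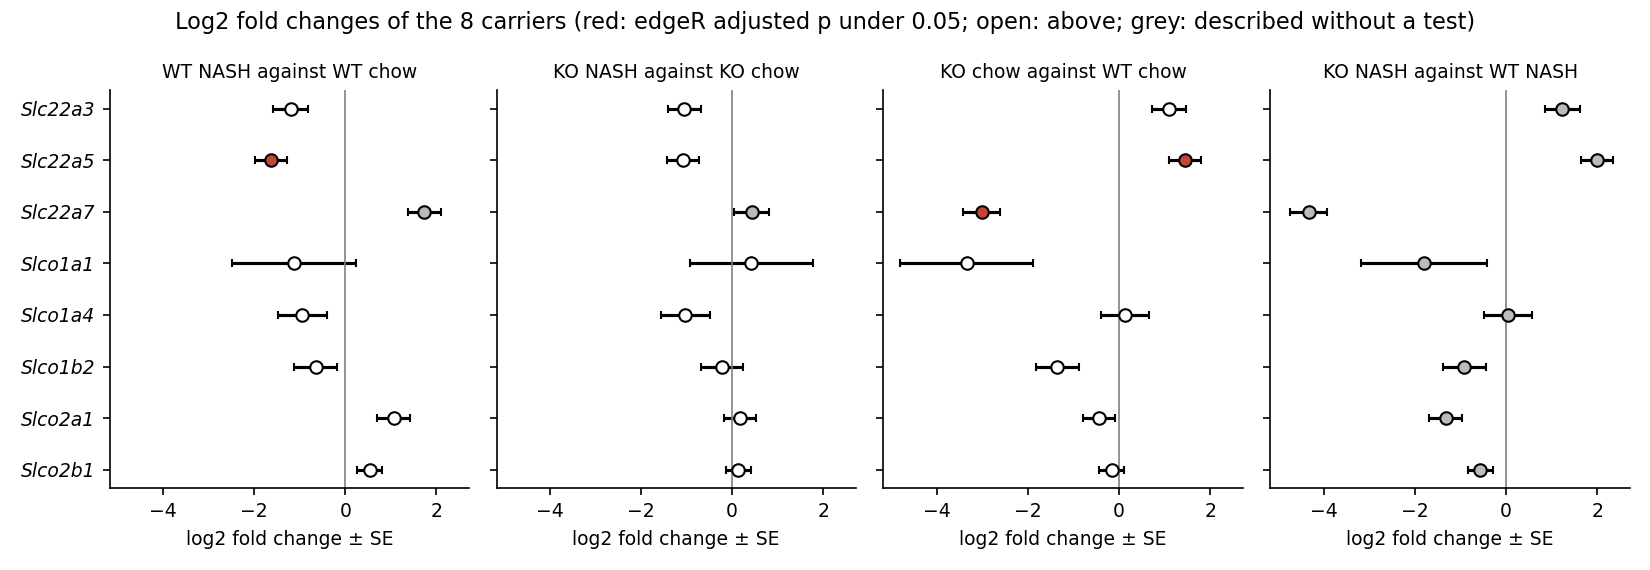
Log2 change ± SE of the 8 carriers in 4 comparisons (5 libraries a group), with red points for an edgeR adjusted p under 0.05, open points for values above it and grey points for values described without a test. The red points are Slc22a5 (1.44) and Slc22a7 (-3.02) for KO on chow and Slc22a5 (-1.63) for the NASH diet in WT.

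Of 32 further Slc22a and Slco symbols, 13 were tested. The shares of all tested genes called were 5.93% for the diet in WT, 5.53% for KO on chow and 3.29% for the diet in KO. For the NASH diet in WT, 3 of 13 rose and 0 fell (median log2 change 0.36, against 0.01 over all genes): Slc22a26, Slc22a27 and Slc22a29, relatives of the organic anion transporters. Slc22a26 averaged 241 ± 138 CPM (SD, n = 5) where chow had 1.89 ± 1.24 (log2 change 7.02, SE 1.57, edgeR adjusted p = 0.0116), but WT NASH replicate 4, its male, was at 0.441 CPM. With sex as a term the Slc22a26 difference was 1.97 (edgeR adjusted p = 0.519). Slc22a27 (6.91) and Slc22a29 (6.50) were at 2.6 and 4.58 once sex was a term, and lost their calls (edgeR adjusted p = 0.417 and 0.0821). With sex and slope as terms, Slc22a29 was called (4.94, edgeR adjusted p = 0.0262). Slc22a26 (2.81, edgeR adjusted p = 0.144) and Slc22a27 (3.44, edgeR adjusted p = 0.0892) were not. For KO on chow, 2 of 13 rose (Slc22a26 by 6.01 and Slc22a27 by 4.90), and sex as a term ended both calls (edgeR adjusted p = 0.181 and 0.396). The Slc22a26 call was also lost in 3 of 20 and the Slc22a27 call in 15 of 20 fits that left out 1 library. In KO NASH against WT NASH, Slc22a30 was lower (-1.49, SE 0.472), which is a description. Its log2 change ran from -2.57 to -0.83 over 32 alternatives. In KO NASH against KO chow 0 of 13 were called, with 4 at an unadjusted p under 0.05, as were 3199 of all 14440 tested genes.

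Canalicular and basolateral exporters and bile salt carriers (17 of 19 tested) did not pass for the diet in WT. There edgeR called 0, where it called 5.93% of all genes. Of the 17, 6 had an unadjusted p under 0.05, as did 3191 of all 14440 tested genes. In KO chow 3 fell and 0 rose: Abcb11, the bile salt export pump (-1.47, SE 0.315, edgeR adjusted p = 0.00946), Atp8b1, a phospholipid flippase (-0.93, SE 0.17, edgeR adjusted p = 0.00347), and Slc10a2, the apical bile acid transporter (-3.68, SE 0.848, edgeR adjusted p = 0.0158). The call of Slc10a2 was lost in 1 of 20 fits that left out 1 library and when sex was a term (edgeR adjusted p = 0.0511). The list's median was 0.12, against 0 over all genes, of which 5.53% were called. The same 3 were lower in KO NASH than in WT NASH (-1.25, -0.61 and -3.34). These values are descriptions. With sex as a term Abcb11 was -0.94 and Atp8b1 -0.55. Over 32 alternatives the log2 change ran from -1.38 to -0.83 for Abcb11, -0.7 to -0.37 for Atp8b1 and -4.99 to -2.07 for Slc10a2. On chow the Abcb11 call was lost in 1 of 31, with only the compared groups in the fit (edgeR adjusted p = 0.0808). In KO NASH, Abcg5, a sterol exporter, was lower (-1.47, edgeR adjusted p = 0.00191) and Abcb11 higher (1.14, edgeR adjusted p = 0.0484) than in KO chow, the latter lost in 16 of 20 fits without 1 library.

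Over all tested genes, 5.53% were called for KO on chow, 5.93% for the diet in WT and 3.29% for the diet in KO. Among 17 regulators of such carriers, 2 fell and 0 rose in KO chow, with a median of -0.10. The one that changed most was Nr0b2, the bile acid-induced repressor SHP (-2.95, SE 0.666, edgeR adjusted p = 0.0139). For the diet in WT 3 rose, led by the female-predominant Cux2 (4.73), which turned to -2.83 in males alone, and in KO livers 1 rose, Ahr (1.17). Targets of the fatty acid receptor PPARalpha (15 of 16 tested) fell in 8 and rose in 0 cases with the diet in WT (median -1.09), led by Cyp4a14 (-3.47, SE 0.77, edgeR adjusted p = 0.0111). The Cyp4a14 call was lost with sex (edgeR adjusted p = 0.0797) or sex and slope (0.0613) as terms, and with only the compared groups in the fit (0.0775). In KO chow 4 rose and 0 fell (median 0.83), led by Pdk4 (3.76, SE 0.7, edgeR adjusted p = 0.004). For KO NASH against WT NASH the median of these targets was 1.64, a description. Against KO chow, 2 fell in KO NASH (median -1.34), led by Ehhadh (-2.38). Slc22a5 is itself known as a target of this receptor and was not in the list. Any part of the receptor in its levels was not tested.

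Targets of the xenobiotic receptors CAR and PXR (12) gave 1 higher and 4 lower in KO chow, where 5.53% of all genes were called. They were led by Cyp2c29 (-3.58, SE 0.593, edgeR adjusted p = 0.00168). For the diet in WT 2 were higher and 2 lower, where 5.93% of all genes were called. Of 7 bile acid synthesis genes, 1 fell in KO chow, Cyp27a1 (-0.95, edgeR adjusted p = 0.0116), lost in 2 of 31 alternatives. Of 12 pericentral genes, to which no member belongs, 2 fell in KO chow, led by Cyp1a2 (-1.66, SE 0.412, edgeR adjusted p = 0.0234, lost in 5 of 31 alternatives, 3 of 20 fits without 1 library among them), and 10 did not pass. Of 10 periportal genes 1 fell, the deleted Pck1. Among 12 female-predominant genes 9 rose with the diet in WT (median 7.38) and 5 in KO chow (median 6.67), the groups with females where WT chow has none. Of 11 male-predominant genes tested, 1 and 3 fell in these comparisons. Hepatocyte markers gave 1 of 8 lower in KO chow (Serpina1c, -1.63), and of the endothelial markers edgeR called 0 of 10 there. Of these 10, 0 had an unadjusted p under 0.05, where 2795 of all 14440 tested genes had.

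Among the genes of at least 1 CPM on average whose log2 CPM ran most closely with Slc22a7 over the 20 libraries were Cyp1a2 (Pearson r = 0.932), Hc (0.926), Pdcd4 (0.915) and Cadps2 (0.909). Cyp1a2 is a pericentral cytochrome P450, and Hc encodes complement component C5. For Slco1a1 they were C6 (0.916), Mup8 (0.890), Alas2 (0.882), Mup7 (0.875) and Mup1 (0.872), of which the Mup genes encode major urinary proteins. These values describe libraries that share group, sex and length slope, and carry no test.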

How the data were processed

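Total RNA was extracted from whole liver with Trizol and libraries followed standard Illumina protocols, per the labels' protocols. HISAT2 2.0.4 and the build GRCm38 are named in the submitters' processing notes. The counting program, its annotation and its use of strand were not given in the sources used here. Values in the deposited table were raw counts, 1 row per gene symbol and 1 column per library. Columns labelled HFD were taken as the NASH groups because the others name chow. Where nothing says that libraries came from separate cages or litters, p-values measure the spread between these samples only.

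The analysis used edgeR 4.0.16 in R 4.3.3: filterByExpr (minimum count 10), TMM scaling, 1 coefficient for each of 4 groups over 20 libraries, the quasi-likelihood F test and Benjamini-Hochberg adjustment over 14440 genes, with calls at an adjusted p under 0.05. The common biological coefficient of variation was 39.0%. SE came from the log2 fold change and the F statistic. Tests were run on simulated data first. Sex was read from Y-linked counts (at least 100 for a male). The length slope used 9520 genes with GENCODE M21 exonic lengths. DESeq2 1.42.0, other scalings, no filter, sex and slope terms, single sexes and leaving out each library were alternatives. KO NASH replicates 1 and 5 were the most alike pair (chi-square per degree of freedom 7.81, next 21.5) and were kept apart.

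The members, the gene lists and the rule for naming genes were chosen with earlier results of these data known. Named are the 8 members, Pck1, the most changed called gene of a list with a mean of at least 1 CPM (up to 3 for the other family members and the exporters), and the 5 genes most like Slc22a7 and Slco1a1, of which 1 is not reported here. Slc22a21 and Plg fall outside that rule and were named after their values were seen.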

Additional observations from a re-analysis of the deposited data

Results flagged for a closer look

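In 3 of 32 combinations of a carrier and a group, 1 library stood apart from the other 4 by more than Dixon's limit, which chance passes in about 1 in 20 groups. Slco1a1 was at 1268 CPM in WT NASH replicate 4, with the others at 0.297 to 82.5 CPM. Slco1b2 was at 4099 CPM in the same library, with the others at 1249 to 2028 CPM. That library is the 1 male of its group and the 1 with a negative length slope there. Slco1a4 was at 57.4 CPM in WT chow replicate 3, with the others at 263 to 317 CPM.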

How the results depend on the processing

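The number of the 8 carriers called changed with the setting. For WT NASH against WT chow, 2 in the fit reported, it was 4 with DESeq2 (10.4% of all genes called), 4 with the replicate block (7.11%), 0 with sex as a term (1.11%), 0 in males alone (0.596%) and 2 to 4 without single libraries. For KO chow against WT chow, also 2, it was 4 with DESeq2 (9.62%), 4 with sex and slope as terms (13.8%), 4 in males alone (6.23%), 1 with only the groups compared (2.2%) and 1 to 4 without single libraries. For KO NASH against WT NASH, the contrast behind the choice, where counts are a description, the 4 became 1 in females alone (0.138%), 2 with KO NASH replicates 1 and 5 as 1 sample (5.23%) and 2 to 4 without single libraries. For the diet in KO, 0, it was 2 with DESeq2 (9.02%), with the slope (6.37%) and with sex and slope as terms (9.37%). For the interaction it was 0 in every alternative that could be fitted.

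Directions turned as follows. For WT NASH against WT chow, Slco1a1 was 1.23 with sex, 1.28 with sex and slope and 1.06 in males alone. In males alone Slco1b2 was 0.26, Slco2a1 -0.41, Slco2b1 -0.26, Slc22a26 -2.09 and Cux2 -2.83, and Slco2b1 was -0.01 with sex and slope. For KO chow against WT chow, Slco1a4 was -0.59 with sex, -0.60 with sex and slope, -0.72 in males alone and -0.15 to 0.31 without single libraries, with -0.11 without WT chow replicate 3, -0.09 without KO chow replicate 3 and -0.15 without KO chow replicate 5. For KO NASH against WT NASH, Slco1a4 was -0.03 without the 20 most abundant genes in the scaling, -0.03 with the replicate block, -0.18 with replicates 1 and 5 merged, and -0.21 to 0.29 without single libraries, with -0.16, -0.21 and -0.15 without WT NASH replicate 4, KO NASH replicate 1 and KO NASH replicate 5. There Slco1a1 was 0.35 with the replicate block and -2.12 to 1.57 without single libraries, the latter without WT NASH replicate 4, and in males alone Slco2a1 was 0.05, Slco2b1 0.24 and Cux2 1.17, where the median of all genes shifted by 0.195. The cause was not tested. Slc22a7 on chow and Slc22a5 on the NASH diet kept their direction in all 31 and 32 alternatives.

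Same-numbered replicates were not treated as pairs: 13 of 30 pairs had a correlation above 0.1 (-0.41 to 0.52), and the replicate block called 1026, 883 and 4 genes for the diet in WT, KO on chow and the interaction against 857, 798 and 20. Over all genes, calls for the diet in WT, KO on chow, KO on the NASH diet, the diet in KO and the interaction were 1496, 1389, 2196, 1303 and 189 with DESeq2 and 1775, 1656, 2387, 920 and 190 with the slope, against 857, 798, 1393, 475 and 20. For the diet in WT they were 161 with sex, 360 with only the groups compared and 95 in males alone. For KO on chow they were 1996 with sex and slope and 296 with only the groups compared. For KO on the NASH diet they were 625 with sex, 21 in females alone and 764 with replicates 1 and 5 merged. For the diet in KO they were 1353 with sex and slope, 59 in males alone, 0 in females alone, 180 with the merged replicates and 253 without the filter. For the interaction they were 4 with sex, 69 with sex and slope, 5 in males alone and 4 with the merged replicates. Females alone allow no comparison with WT chow, Slc22a27 has no counts in the WT NASH male, and only the groups compared gives no other interaction. Few reads in KO libraries limit Slc22a7, and its KO levels are not compared further.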
